A study of Mus musculus with 2 samples.

Results

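The levels of 10 genes were followed in mammary fibroblasts across puberty and adulthood: 3 Wnt ligands (*Wnt2*, *Wnt5a* and *Wnt11*) and 7 secreted Wnt antagonists (*Sfrp1*, *Sfrp2*, *Sfrp4*, *Frzb*, *Dkk2*, *Dkk3* and *Wif1*). They were chosen by symbol, and all 10 were found among the 33696 genes listed for both libraries. The cells were stroma of the mammary glands of female wildtype C57BL/6 mice, sorted as Lineage-negative and CD24-negative, taken at 4 weeks of age (puberty) or as virgin adults of 9 weeks. Single-cell RNA sequencing (scRNA-seq) was performed on the 10x Chromium platform, with 1 library for each stage and, per the labels, 2 females per condition whose cells cannot be told apart in the files. With 1 library per stage no difference between stages can be set against the spread between mice, so each value describes these libraries, and the 95% intervals given below cover counting error only. The labels name no transgene and no treatment for either group.

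Wnt proteins are secreted, lipid-modified ligands that bind Frizzled receptors together with the co-receptors LRP5 and LRP6 to stabilize β-catenin, or act through receptors such as ROR1 and ROR2 on cell polarity and movement. Secreted antagonists act outside the cell: the secreted Frizzled-related proteins (SFRPs, with *Frzb*) and WIF1 bind the ligands themselves, whereas Dickkopf proteins such as DKK2 bind the LRP co-receptors. In the mammary gland, Wnt signals exchanged between stroma and epithelium are known to act on ductal branching and on stem cells.

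Fibroblasts were taken as cells with at least 500 detected genes, at most 10% mitochondrial transcripts and at least 1 unique molecular identifier (UMI, the tag that counts 1 captured transcript) of *Pdgfra*, a pan-fibroblast marker. This left 18878 pubertal cells and 20999 adult cells, with medians of 12187 and 11265 UMIs per cell. Of the 5 fibroblast markers, *Pdgfra* was required by the rule, and *Dcn*, *Lum*, *Col1a1* and *Col1a2* were found as well. The lowest was *Pdgfra*, at 379.7 CPM at puberty and 634.9 CPM in the adult. CPM stands for UMIs of a gene summed over cells, per 1000000 UMIs of all genes in those cells. Summed over the list, the 8 mural markers gave 131 CPM in pubertal and 94.7 CPM in adult *Pdgfra*-positive cells, most of it from *Abcc9* (68.7 and 57.6 CPM), and the 5 endothelial markers gave 44.4 and 21.6 CPM, most of it from *Pecam1* and *Kdr*. The part of other cell types in the stage differences was not tested. The epithelial list summed to 3.16 and 1.12 CPM and the immune list to 1.17 and 1.17 CPM. The libraries shared 145 cell barcodes.

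The members were also read out in 5 marker subsets of the *Pdgfra*-positive cells. Cells with UMIs of both *Pi16* and *Dpp4*, markers of progenitor fibroblasts, made up 74.1% of pubertal and 42.2% of adult cells. Cells with *Gdf10* or *Fmo2* made up 39.5% and 47.9%, cells with *Thbs4* or *Bmp5* 4.91% and 14.8%, cells with at least 2 UMIs of *Fabp4*, a lipid-binding protein of preadipocytes, 9.42% and 12.2%, and cells with *Crabp1*, a retinoic acid-binding protein, 1.53% and 12.7%. The rules overlap: 30.7% of pubertal and 35.5% of adult cells met at least 2 of them, and 3.74% and 11.9% met none. A cell is assigned by UMIs of few genes, so the subsets are readouts and not cell types. The smallest was the pubertal *Crabp1* subset, with 289 cells. A cell with no *Pdgfra* UMI and at least 3 of the 8 mural markers was used as a reference that should hold little fibroblast RNA; there were 644 such cells at puberty and 391 in the adult.

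Among the members, *Wnt2* and *Sfrp2* had the most similar pattern over the cell groups (given below), so the sequence before their start sites is shown. Promoter windows of RefSeq (build GRCm38.p6, from 250 bases before to 50 bases after a start site) matched 6 of the 10 members (*Wnt2*, *Wnt11*, *Sfrp2*, *Frzb*, *Dkk2* and *Wif1*). The stretches printed run 5′ to 3′ on the gene's own strand and stop before any annotated exon. They lie at chr3:83766071-83766320 on the plus strand for *Sfrp2* (250 bases, 63.6% G or C) and at chr6:18030586-18030695 on the minus strand for *Wnt2* (110 bases, 62.7% G or C). Capitals mark the only match to a searched motif, a GC box on the reverse strand.
Sfrp2: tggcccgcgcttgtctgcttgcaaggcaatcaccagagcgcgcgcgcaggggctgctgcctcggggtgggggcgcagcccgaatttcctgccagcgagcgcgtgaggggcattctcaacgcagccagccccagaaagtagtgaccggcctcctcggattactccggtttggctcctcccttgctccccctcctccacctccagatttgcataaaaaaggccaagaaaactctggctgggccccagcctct
Wnt2: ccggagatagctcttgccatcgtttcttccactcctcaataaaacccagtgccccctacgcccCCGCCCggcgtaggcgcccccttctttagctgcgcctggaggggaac

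Motifs were searched as exact letters on both strands of the whole 300-base windows. These were the TATA box (TATAAA), the GC box (GGGCGG), the CCAAT box (CCAAT) and a binding motif of TCF/LEF factors, which carry β-catenin to DNA (CTTTGAT). The *Sfrp2* window held none of these, and the *Wnt2* window held 2 GC boxes and 1 CCAAT box. Of all 32851 windows, 35.7% held the GC box, 37.4% the CCAAT box, 13.6% the TATA box and 3.73% the TCF/LEF letters. The TCF/LEF letters were found once among the 7 windows of members, in the upstream window of *Wnt11*. A match is a run of letters and not a known binding site.

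Of the 10 members, 8 reached 10 CPM in at least 1 library, and *Wif1* and *Frzb* did not. Of the 8, *Sfrp1* alone differed at least 2-fold between the stages, and it was higher in the adult library. Among all 8645 genes with at least 10 CPM, 4.4% were at least 2-fold higher in the adult and 1.86% at least 2-fold lower, so the counts of members, 1 of 8 higher and 0 of 8 lower, are too small to stand apart from that background. The median log2 ratio over these genes was 0.13, and it was -0.01 with TMM scaling, which assumes that most genes do not differ. When the 5 exclusive subsets (cells that met 1 rule only) and the cells in none had equal weight, *Sfrp1* was 1.57-fold higher in the adult and no longer past 2-fold, *Sfrp4* was 0.86-fold, and the ratios of *Wnt2* (1.47), *Wnt5a* (0.85), *Wnt11* (1.05), *Sfrp2* (1.07), *Dkk2* (0.89), *Dkk3* (0.87) and *Wif1* (0.42) lay on the other side of 1 from those over all cells. The plot of levels by library shows the 10 genes side by side. UMIs were not scaled by transcript length, so levels are compared between cells and stages, not between genes.

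**Figure D1:**
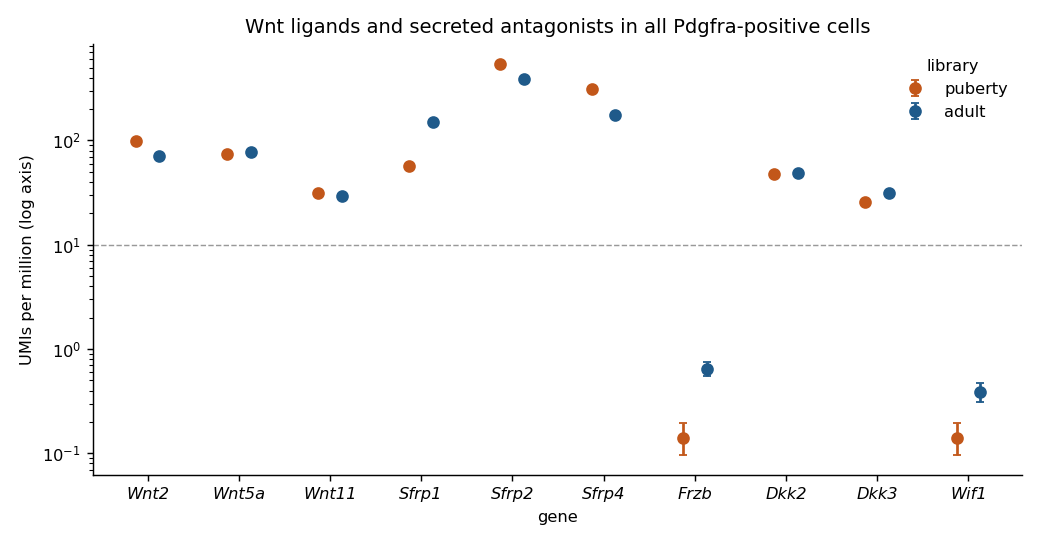
Level of each of the 10 genes in all *Pdgfra*-positive cells of the pubertal (orange) and adult (blue) library, in CPM on a log axis; bars are exact Poisson 95% intervals, mostly smaller than the points, and the dashed line marks 10 CPM. *Sfrp1* lies higher in the adult library and *Sfrp4* lower, and *Frzb* and *Wif1* lie under 1 CPM in both.

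Among the ligands, *Wnt2*, a ligand of the β-catenin pathway known from lung and mammary stroma, was counted at 99.3 CPM (95% interval 98.0 to 100.6) at puberty and 71.4 CPM (70.3 to 72.5) in the adult. The adult over puberty ratio was 0.72 (0.71 to 0.73). *Wnt2* was thus lower in the adult library over all *Pdgfra*-positive cells, but the direction was not shared by the subsets. It was 123.7 and 88.6 CPM in *Pi16*+*Dpp4*+ cells, a ratio of 0.72, whereas *Crabp1* cells had 52.4 CPM at puberty and 88.0 CPM in the adult, a ratio of 1.68 (1.47 to 1.94). *Fabp4* cells had 29.4 and 49.4 CPM, a ratio of 1.68 (1.54 to 1.83). The ligand was therefore lower in the adult library in the 3 subsets with *Pi16*+*Dpp4*+, *Gdf10* or *Fmo2*, and *Thbs4* or *Bmp5*, and higher in the other two.

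Most *Wnt2* transcripts of the pubertal library came from *Pi16*+*Dpp4*+ cells. These held 95.7% of its UMIs at puberty and 60.7% in the adult, while making up 74.1% and 42.2% of the cells. Their level was 6.76-fold (6.35 to 7.21) that of all other *Pdgfra*-positive cells at puberty and 1.61-fold (1.57 to 1.66) in the adult. The level of the cells outside the subset was 18.3 CPM at puberty and 54.9 CPM in the adult, so it was higher in the adult library while that inside was lower. In cells that met only the *Gdf10* or *Fmo2* rule, *Wnt2* was 17.1 CPM at puberty and 42.9 CPM in the adult (ratio 2.51, 2.25 to 2.81). In cells that met only the *Thbs4* or *Bmp5* rule it was 6.78 and 21.4 CPM (ratio 3.15, 1.92 to 5.53). Outside the progenitor-marked cells, *Wnt2* was thus higher in the adult library in each of the other 4 exclusive groups.

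*Wnt5a*, a ligand known mainly for signaling through ROR receptors, was near level between the stages, at 73.6 CPM (72.5 to 74.7) at puberty and 77.5 CPM (76.4 to 78.6) in the adult, a ratio of 1.05 (1.03 to 1.08) that became 0.95 with TMM scaling. No overlapping subset differed from the other cells by 2-fold in both libraries, which was also so for *Sfrp2* and *Dkk2*. Over the 5 subsets the *Wnt5a* ratio ran from 0.77 to 1.21 at puberty and from 0.46 to 1.28 in the adult. *Fabp4* cells had its lowest level among the subsets, 58.1 CPM at puberty and 38.9 CPM in the adult, which was 0.77-fold and 0.46-fold that of the other cells. The stage ratio was 1.25 (1.22 to 1.28) in *Pi16*+*Dpp4*+ cells and 0.67 (0.62 to 0.72) in *Fabp4* cells. The 3 remaining subsets lay between 0.85 and 0.96.

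*Wnt11*, a ligand linked to planar polarity signaling, was counted with 7406 UMIs at puberty and 7237 in the adult. Its level was 31.3 CPM (30.6 to 32.0) and 29.2 CPM (28.6 to 29.9), a ratio of 0.93 (0.90 to 0.97). It was 2.86-fold higher in *Pi16*+*Dpp4*+ cells than outside them at puberty and 2.26-fold higher in the adult, and *Fabp4* cells had 0.41-fold and 0.37-fold the level of other cells. Of the overlapping subsets, *Wnt11* was thus highest in *Pi16*+*Dpp4*+ and lowest in *Fabp4* cells in both libraries. Inside *Pi16*+*Dpp4*+ cells lay 90.5% of its UMIs at puberty and 68.3% in the adult. In pubertal exclusive groups, *Crabp1* (41.0 CPM, 30.7 to 53.8) was level with *Pi16*+*Dpp4*+ (41.4 CPM). *Thbs4* or *Bmp5* (11.2 CPM) and *Gdf10* or *Fmo2* (11.8 CPM) lay below *Fabp4* (13.6 CPM) there. Within *Thbs4* or *Bmp5* cells it was 19.8 CPM at puberty and 28.9 CPM in the adult, a ratio of 1.46 (1.27 to 1.69).

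**Figure D2:**
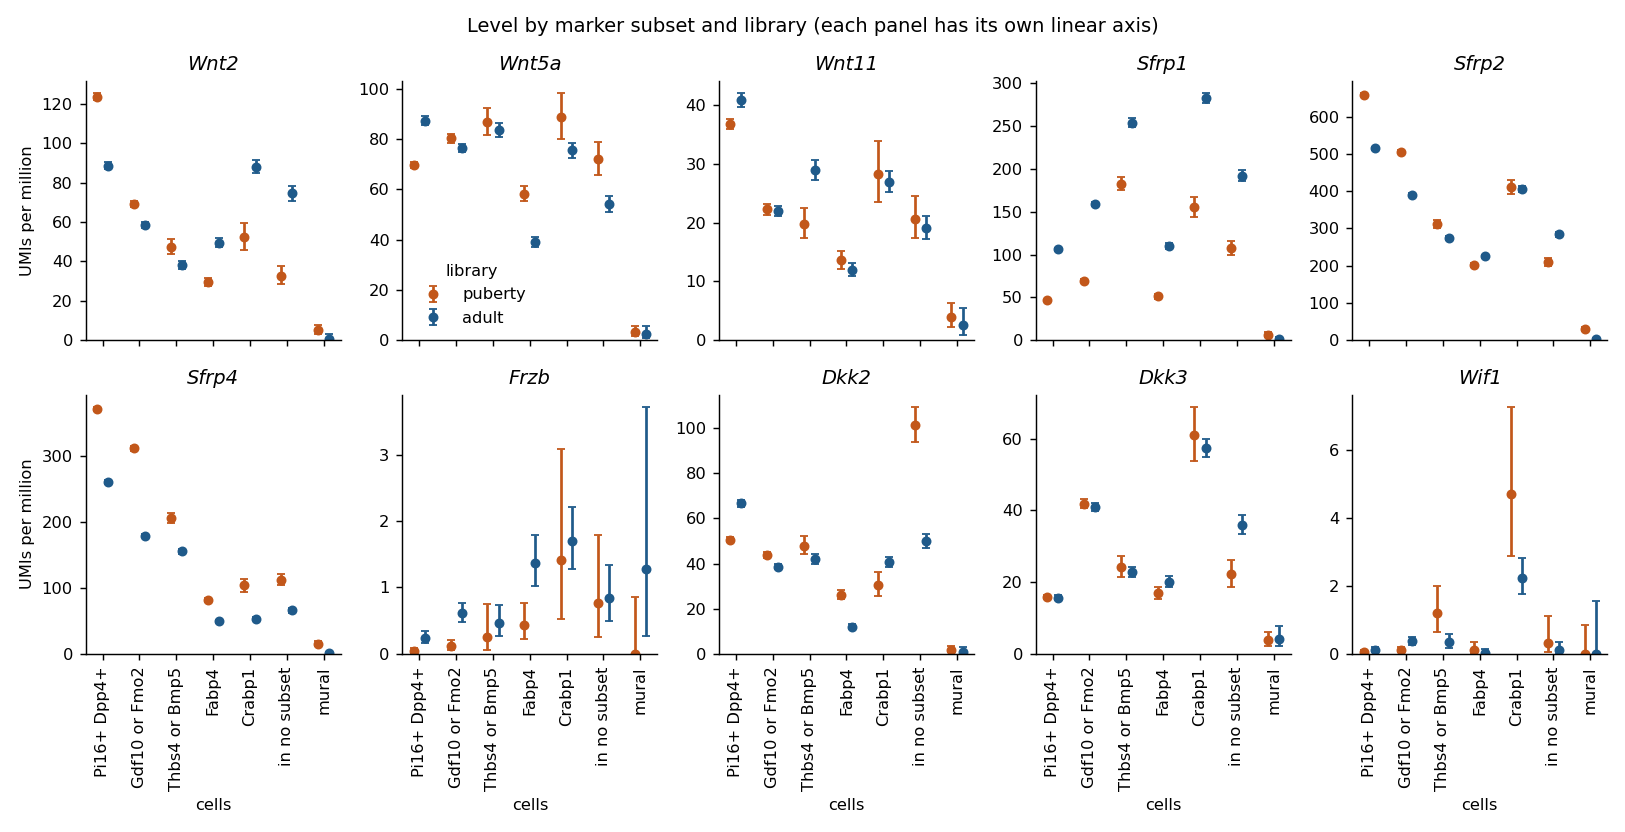
Level of each gene, in CPM on its own linear axis, in the 5 marker subsets, in *Pdgfra*-positive cells of no subset and in mural-marker cells of the pubertal (orange) and adult (blue) library; bars are exact Poisson 95% intervals. *Sfrp4* is highest in *Pi16*+*Dpp4*+ cells (371.5 and 259.8 CPM), *Sfrp1* and *Dkk3* are high in *Crabp1* cells, and the 8 more abundant genes are low in mural-marker cells.

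The SFRP family divided between the subsets. *Sfrp1*, an SFRP that binds Wnt ligands and is known to be expressed in many stromal tissues, was 57.0 CPM (56.0 to 58.0) at puberty and 151.3 CPM (149.8 to 152.9) in the adult, a ratio of 2.66 (2.60 to 2.71). It was higher in the adult library in all 5 subsets, with ratios of 2.28 in *Pi16*+*Dpp4*+, 2.28 in *Gdf10* or *Fmo2*, 2.16 in *Fabp4*, 1.82 in *Crabp1* and 1.39 in *Thbs4* or *Bmp5* cells. Each of these intervals lay above 1. The smallest ratio was in the subset that already had the highest pubertal level, 182.5 CPM, against 253.9 CPM in the adult. In cells that met only 1 rule, the *Sfrp1* ratio was past 2-fold for *Fabp4* alone (2.26). It was 1.59 for *Pi16*+*Dpp4*+, 1.87 for *Gdf10* or *Fmo2*, 1.76 for *Crabp1* and 1.15 for *Thbs4* or *Bmp5*.

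Across subsets, *Sfrp1* was highest in *Thbs4* or *Bmp5* cells at puberty and in *Crabp1* cells in the adult (282.4 CPM, against 155.0 CPM at puberty). *Crabp1* cells had 2.81-fold (2.59 to 3.04) the level of other cells at puberty and 2.15-fold (2.10 to 2.20) in the adult. *Pi16*+*Dpp4*+ cells had the lowest *Sfrp1* of the subsets, 46.4 and 106.0 CPM, or 0.50-fold and 0.54-fold that of the other cells. In exclusive groups the gap was wider: cells that met only the *Pi16*+*Dpp4*+ rule had 34.8 and 55.5 CPM, and cells that met only the *Thbs4* or *Bmp5* rule had 271.8 and 311.7 CPM. *Sfrp1* was therefore lowest in the subset in which *Sfrp4* was highest.

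*Sfrp2*, a matrix-associated SFRP abundant in fibroblasts, was 543 CPM (540 to 546) at puberty and 384.7 CPM (382.3 to 387.2) in the adult, a ratio of 0.71 (0.70 to 0.71). *Pi16*+*Dpp4*+ cells had 659.3 and 515.8 CPM, which was 4.21-fold and 1.99-fold that of the other cells, so the adult value fell just short of 2-fold. The stage ratio was 0.78 in *Pi16*+*Dpp4*+, 0.77 in *Gdf10* or *Fmo2* and 0.88 in *Thbs4* or *Bmp5* cells. It was 1.11 (1.07 to 1.15) in *Fabp4* cells and 0.99 (0.94 to 1.04) in *Crabp1* cells. *Sfrp2*, as *Wnt2*, was thus highest in *Pi16*+*Dpp4*+ cells, although for adult *Wnt2* the *Crabp1* cells came close (88.6 and 88.0 CPM). In cells that met only the *Thbs4* or *Bmp5* rule *Sfrp2* was 45.8 CPM at puberty and 146.5 CPM in the adult, a ratio of 3.20 (2.64 to 3.90). These levels were 0.08-fold and 0.37-fold those of all other *Pdgfra*-positive cells. Cells that met only the *Fabp4* rule had 0.13-fold and 0.41-fold, so both exclusive groups were past 2-fold in both libraries.

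*Sfrp4*, an SFRP also known for effects on phosphate handling and adipose tissue, was 313.6 CPM (311.4 to 315.9) at puberty and 173.6 CPM (171.9 to 175.2) in the adult. The ratio was 0.55 (0.55 to 0.56), the furthest below 1 of the members. It was lower in the adult library in all 5 subsets, from 0.51 (0.46 to 0.57) in *Crabp1* cells to 0.76 (0.72 to 0.79) in *Thbs4* or *Bmp5* cells. *Sfrp4* also differed between subsets, past 2-fold in 3 of the 5 in both libraries. *Pi16*+*Dpp4*+ cells had 371.5 and 259.8 CPM, 3.06-fold and 2.85-fold that of the other cells, while *Fabp4* cells had 0.24-fold and 0.25-fold and *Crabp1* cells 0.33-fold and 0.28-fold. Cells that met only the *Pi16*+*Dpp4*+ rule had 358.8 and 269.5 CPM of *Sfrp4*, near the level of the whole subset. This was 1.32-fold and 1.87-fold that of all other *Pdgfra*-positive cells, so under 2-fold. Those other cells here include the *Pi16*+*Dpp4*+ cells that also met another rule. Among cells that met only the *Crabp1* rule, *Sfrp4* was 7.10 CPM at puberty (9 UMIs in 100 cells) and 8.25 CPM in the adult (90 UMIs in 1042 cells). Mural-marker cells had 14.9 and 0.42 CPM.

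The direction of *Sfrp4* within a subset depended on the cells that subsets share. Among cells that met only the *Thbs4* or *Bmp5* rule, *Sfrp4* was 39.9 CPM at puberty and 79.3 CPM in the adult, a ratio of 1.99 (1.61 to 2.48), and among cells that met only the *Fabp4* rule it was 11.1 and 22.1 CPM, a ratio of 1.99 (1.48 to 2.70). In both, the direction was opposite to that of the overlapping subset. Of the exclusive subsets, *Sfrp4* was thus lower in the adult library in *Pi16*+*Dpp4*+ (0.75) and *Gdf10* or *Fmo2* (0.90) only. The interval for *Crabp1* alone (0.59 to 2.62) included 1. Cells of no subset also had less *Sfrp4* in the adult library, with 112 CPM at puberty and 65.6 CPM in the adult. Their ratio was 0.59 (0.53 to 0.64). *Pi16*+*Dpp4*+ cells, where *Sfrp4* was highest, made up 45.5% of pubertal and 44.3% of adult *Thbs4* or *Bmp5* cells, and 23.3% and 15.4% of *Fabp4* cells.

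**Figure D3:**
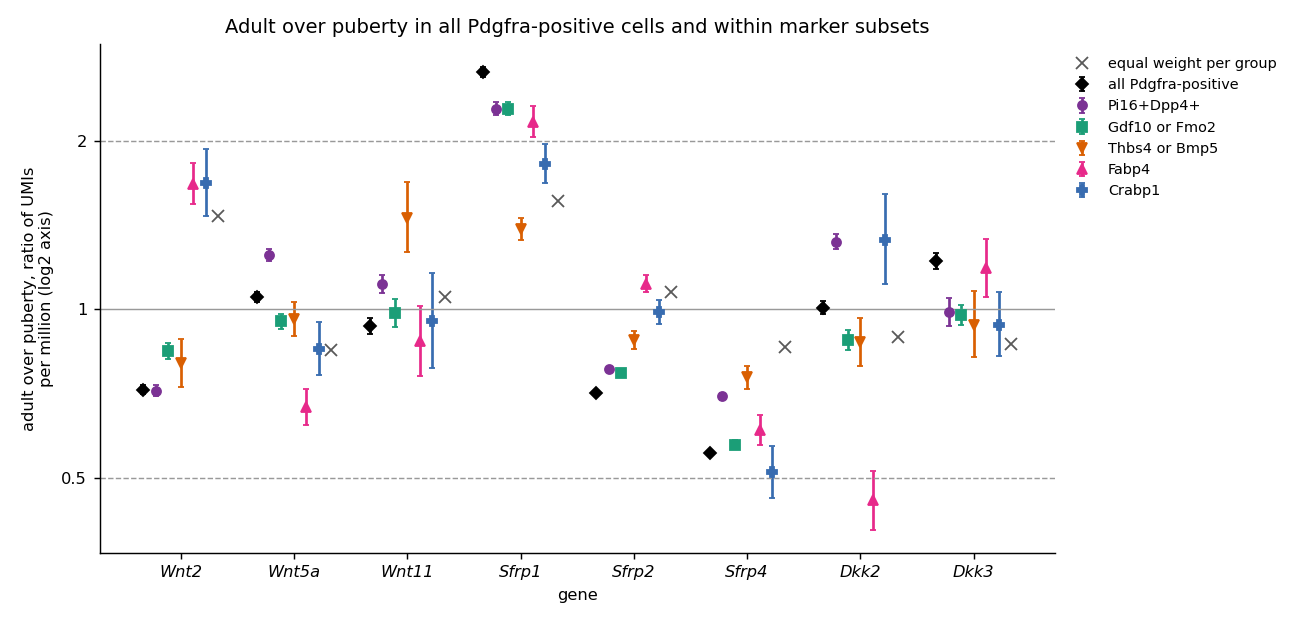
Adult over puberty ratio of the level, on a log2 axis, for the 8 genes with at least 10 CPM in all *Pdgfra*-positive cells (black) and in each of the 5 overlapping subsets, with exact conditional 95% intervals for counting error; crosses give the ratio when the 5 exclusive subsets and the cells in none had equal weight. Dashed lines mark 2-fold. *Sfrp1* lies above 1 and *Sfrp4* below 1 in every group, while *Wnt2* and *Dkk2* lie on both sides.

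*Dkk2*, a Dickkopf protein that binds LRP5 and LRP6, was 48.0 CPM (47.1 to 48.9) at puberty and 48.4 CPM (47.5 to 49.3) in the adult, a ratio of 1.01 (0.98 to 1.03) that became 0.91 with TMM scaling. Within subsets the ratios lay further from 1, in both directions. It was higher in the adult library in *Pi16*+*Dpp4*+ cells, with 50.5 and 66.7 CPM (ratio 1.32, 1.28 to 1.36), and in *Crabp1* cells, with 30.7 and 40.9 CPM (ratio 1.33, 1.11 to 1.61). It was lower in *Fabp4* cells, with 26.2 and 11.97 CPM (ratio 0.46, 0.40 to 0.52), the only decrease of at least 2-fold among the 8 more abundant members in the 5 overlapping subsets. *Dkk2* was counted in few cells but with several UMIs each: in all *Pdgfra*-positive cells, 16.9% of pubertal and 14.4% of adult cells had a UMI, with means of 3.56 and 3.95 UMIs in those cells. Pubertal cells of no subset had 101.5 CPM, the highest *Dkk2* level of any group, against 50.1 CPM in the adult.

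*Dkk3*, a divergent Dickkopf protein that is not an established LRP antagonist, was 25.5 CPM (24.8 to 26.1) at puberty and 31.1 CPM (30.4 to 31.8) in the adult, a ratio of 1.22 (1.18 to 1.26). Within the overlapping subsets the ratio was from 0.94 to 1.19, and only the *Fabp4* interval (1.05 to 1.34) did not include 1. In exclusive groups it was further from 1, at 0.64 (0.60 to 0.67) for *Gdf10* or *Fmo2* and 2.81 (1.84 to 4.41) for *Fabp4*. Of the overlapping subsets, *Crabp1* cells had the highest level, 61.1 and 57.4 CPM, or 2.46-fold and 2.12-fold that of the other cells. *Gdf10* or *Fmo2* cells had 41.9 and 40.9 CPM, or 3.06-fold and 1.95-fold. Of the exclusive groups, *Gdf10* or *Fmo2* had the highest *Dkk3* level, 101.1 and 64.2 CPM, against 79.7 and 62.2 CPM for *Crabp1*. *Pi16*+*Dpp4*+ cells had 15.8 and 15.6 CPM of *Dkk3*, or 0.27-fold and 0.34-fold, whereas *Dkk2* was at 1.27-fold and 2.16-fold in these cells. Both Dickkopf genes were lower in *Fabp4* cells than in the other cells. Although *Pi16*+*Dpp4*+ cells were 74.1% of the pubertal cells, they held 47.6% of the *Dkk3* UMIs.

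*Wif1*, Wnt inhibitory factor 1, was rare, with 33 UMIs in 16 of 18878 pubertal cells and 95 UMIs in 56 of 20999 adult cells. These came to 0.14 CPM (0.10 to 0.20) and 0.38 CPM (0.31 to 0.47). What there was lay mostly in *Crabp1* cells, which held 20 of the 33 pubertal UMIs and 73 of the 95 adult UMIs, or 60.6% and 76.8%. In *Crabp1* cells the level was 4.72 CPM (2.88 to 7.29) at puberty and 2.25 CPM (1.76 to 2.83) in the adult, and 3.81% and 1.72% of those cells had a UMI. Over all *Pdgfra*-positive cells *Wif1* was thus higher in the adult (ratio 2.75, 1.84 to 4.22, but 0.42 with equal weight for the exclusive groups), and within *Crabp1* cells lower (0.48, 0.29 to 0.83). Mural-marker cells had 0 UMIs in both libraries, which allows up to 0.466% of pubertal and 0.767% of adult mural-marker cells with a UMI. Outside the *Pdgfra*-positive cells, 28 adult cells with epithelial markers had 32 *Wif1* UMIs, or 74.0 CPM (50.6 to 104.5).

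*Frzb*, the SFRP also called secreted frizzled-related protein 3, was as rare, with 33 UMIs at puberty and 161 in the adult (0.14 CPM, 0.10 to 0.20, and 0.65 CPM, 0.55 to 0.76). Its ratio of 4.67 (3.19 to 7.01) rests on these few counts. *Fabp4* and *Crabp1* cells had the highest adult levels, 1.36 CPM (1.02 to 1.79) and 1.70 CPM (1.28 to 2.21), with overlapping intervals. In the thinned adult library 0.175% of *Pdgfra*-positive cells and 0.623% of mural-marker cells had a *Frzb* UMI, so the share was not above that background. Of the cells without a *Pdgfra* UMI, those with Schwann cell markers held more: 14 *Frzb* UMIs in 48 adult cells, or 102.9 CPM (56.3 to 172.7), and *Sfrp1* at 332.1 CPM (261.2 to 416.3) at puberty and 213.2 CPM (142.8 to 306.2) in the adult.

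The members that differed at least 2-fold from the other cells, in the same direction in both libraries, were counted for each subset. In *Pi16*+*Dpp4*+ cells they were 3 of 8 (*Wnt11* and *Sfrp4* higher, *Dkk3* lower), beside 8.74% of all genes tested. In cells that met only this rule they were 2 of 8 (*Sfrp1* and *Dkk3* lower), with *Wnt11* at 1.89-fold and 2.18-fold. The other cells here included the *Pi16*+*Dpp4*+ cells that also met another rule. The *Wnt11* level itself was higher in cells of this rule only than in the whole subset, in both libraries. In *Crabp1* cells the members past 2-fold were 3 of 8 (*Sfrp1* and *Dkk3* higher, *Sfrp4* lower), beside 9.27%. In *Fabp4* cells they were 2 of 8 (*Wnt11* and *Sfrp4* lower), beside 4.02%. In *Thbs4* or *Bmp5* cells it was *Wnt2* alone, at 0.46-fold and 0.49-fold, beside 2.16%, and in *Gdf10* or *Fmo2* cells it was 0 of 8, beside 1.07%. The same count for differences between the stages was 1 of 8 in *Pi16*+*Dpp4*+ cells (background 4.3%), 1 of 8 in *Gdf10* or *Fmo2* cells (5.94%), 0 of 8 in *Thbs4* or *Bmp5* cells (3.64%), 2 of 8 in *Fabp4* cells (4.15%) and 0 of 8 in *Crabp1* cells (4.78%). *Sfrp1* was the member that passed in the first 2 of these, and *Sfrp1* and *Dkk2* those in *Fabp4* cells. In the exclusive groups of the first 2, *Sfrp1* did not pass (1.59 and 1.87). The member past 2-fold in *Gdf10* or *Fmo2* cells of that rule only was *Wnt2* (2.51).

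To compare at equal depth how many cells held a transcript, 3000 UMIs were drawn from every cell that had as many, which left 18542 pubertal and 20573 adult cells. *Sfrp2* was found in 53.1% (52.4 to 53.9) of pubertal and 40.1% (39.4 to 40.8) of adult cells, and *Sfrp4* in 45.1% (44.3 to 45.8) and 22.3% (21.7 to 22.8). *Sfrp1* was found in 11.7% (11.3 to 12.2) and 27.6% (27.0 to 28.2). *Wnt2* was found in 22.3% and 16.4% of cells. These 4 genes thus moved between the libraries in the share of cells in the same direction as in level. *Wnt5a* was found in 18.6% and 18.7%, *Wnt11* in 8.83% and 7.69%, *Dkk2* in 8.51% and 7.83%, and *Dkk3* in 7.02% and 8.59%.

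Mural-marker cells, with medians of 6410 and 6189 UMIs, gave shares after thinning from 0.161% to 1.61% for these 8 genes at puberty and at most 1.56% in the adult; for *Dkk2* in the adult it was 0 of 321 cells, which allows up to 0.935%. Each of the 8 genes was thus found more often in *Pdgfra*-positive cells than in this background. Before thinning, *Sfrp2* was found in 72.1% and 58.9% of *Pdgfra*-positive cells, *Sfrp4* in 70.7% and 39.1%, *Sfrp1* in 30.6% and 49.3% and *Wnt2* in 51.8% and 39.5%.

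For *Sfrp1* the amount per positive cell differed as well as the share. Positive cells after thinning had a mean of 1.39 UMIs of *Sfrp1* at puberty and 1.74 in the adult. For *Sfrp4* the mean was 2.01 and 2.09 UMIs, so the lower adult level went with fewer positive cells and not with fewer UMIs in each. *Sfrp2* had 2.93 and 2.69 UMIs per positive cell, and *Wnt2* 1.32 and 1.27.

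**Figure D4:**
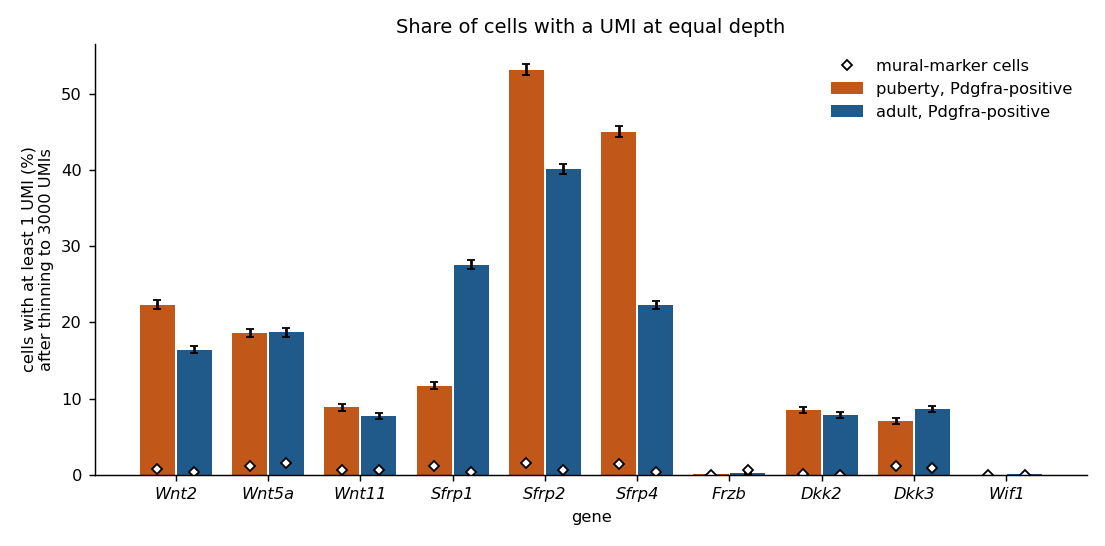
Share of *Pdgfra*-positive cells with at least 1 UMI of each gene after thinning each cell to 3000 UMIs, in percent, for the pubertal (orange) and adult (blue) library; bars start at 0 and carry exact Clopper-Pearson 95% intervals, and diamonds give the share in mural-marker cells of the same library. *Sfrp4* is found in 45.1% and 22.3% of cells and *Sfrp1* in 11.7% and 27.6%, and the diamonds stay under 2%.

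Most cells carried antagonist transcripts. At 3000 UMIs, 77.5% of pubertal and 70.5% of adult *Pdgfra*-positive cells had a UMI of at least 1 of the 7 antagonists, and 42.3% and 37.1% had a UMI of at least 1 of the 3 ligands. Both kinds were found together in 34.6% and 28.1% of cells, a ligand without an antagonist in 7.71% and 8.95%, and no member in 14.8% and 20.5%. The mean number of members per cell was 1.75 at puberty and 1.49 in the adult. It was highest in *Pi16*+*Dpp4*+ cells, at 2.00 and 1.78, and lowest in *Fabp4* cells, at 0.82 and 0.94. In *Fabp4* cells 46.6% of pubertal and 39.0% of adult cells had no member.

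Pairs of members in the same cell were set against the product of their single shares, as a description over thinned cells of 1 library. *Sfrp2* and *Sfrp4* were found together in 28.5% of pubertal and 11.3% of adult cells, 1.19 and 1.26 times the product. *Wnt2* was found with *Sfrp2* at 1.19 and 1.31 times and with *Sfrp4* at 1.23 and 1.34 times the product. These 3 genes and *Wnt11* were found together above the product in every pair of both libraries. *Sfrp1* and *Sfrp4* were below it, at 0.90 and 0.61 times: in the adult, 13.6% of cells with a *Sfrp1* UMI had a *Sfrp4* UMI, against 25.6% of cells without one. *Dkk3* and *Wnt11* were at 0.57 and 0.85 times.

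**Figure D5:**
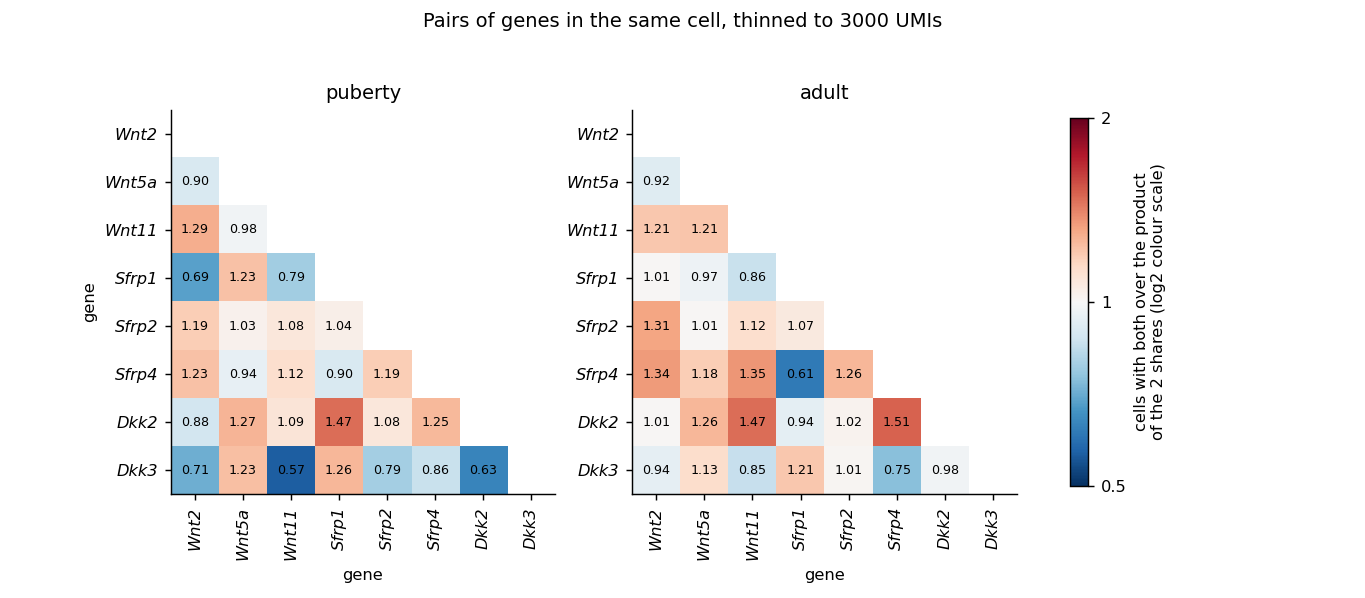
Cells with both genes of a pair over the product of their single shares, for 8 genes in *Pdgfra*-positive cells thinned to 3000 UMIs, at puberty (left) and in the adult (right); colour is on a log2 scale from 0.5 to 2, with 1 in white. *Wnt2*, *Wnt11*, *Sfrp2* and *Sfrp4* pair above 1 in both libraries, and *Sfrp1* with *Sfrp4* lies at 0.90 and 0.61.

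Likeness of pattern was measured as Pearson's r of log2(CPM + 1) over 12 groups of cells, the 5 exclusive subsets and the cells in none of each library. The 12 points come from only 2 libraries and differ in depth, so r is a description with no test. Among 7865 candidate genes, the gene most like *Sfrp2* was *Wnt2* (r = 0.93), followed by *Otud7b* (0.93) and *Snx2* (0.92). *Wnt2* was most like *Smad4* (0.97), *Otud7b* (0.97) and *Tspan5* (0.94). *Wnt11* also lay near *Sfrp2* (0.78) and *Wnt2* (0.70), with *Plscr1* (0.95) as its closest gene.

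*Sfrp4* was most like *Epdr1* (0.97), *Ildr2* (0.96) and *St6gal1* (0.95), and *Sfrp1* like *Lama2* (0.97), *Gnao1* (0.96) and *Fam184a* (0.96). Between these 2 SFRP genes r was -0.38. The closest genes to *Dkk3* were *Slc7a2* (0.93), *Ahr* (0.92) and *Prdm6* (0.91). *Wnt5a* and *Dkk2* had no close neighbour: their highest values were 0.84 (*Gamt*) and 0.78 (*Lrrc4c*).

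The wider pathway was read from lists that hold the members. Of 19 Wnt ligands, 6 reached 10 CPM in a library and none was 2-fold apart between the stages. Beside the 3 ligands above these were *Wnt9a* (10.6 and 13.1 CPM), *Wnt10b* (17.0 and 9.25 CPM, ratio 0.54, 0.52 to 0.57) and *Wnt16* (7.63 and 10.2 CPM), named after their values were seen. Of 16 secreted antagonists, the 5 that reached 10 CPM were members, and the other 11, *Wif1* and *Frzb* included, lay under 1 CPM in both libraries. *Wls*, the carrier that takes Wnt ligands to the cell surface, was 228.8 CPM at puberty and 295.0 CPM in the adult (ratio 1.29, 1.28 to 1.30).

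The median log2 ratio over the genes of at least 10 CPM was -0.01 for the ligands, 0.53 for the receptors and 0.75 for the β-catenin feedback and target genes, against 0.13 over all genes. Of 18 receptors and co-receptors, 13 reached 10 CPM, and 3 were at least 2-fold higher in the adult library and none 2-fold lower, beside the 4.4% of all genes that were 2-fold higher. These were *Ror1* (123.2 and 381.2 CPM, ratio 3.10, 3.06 to 3.14), *Ror2* (50.6 and 121.6 CPM, ratio 2.40) and *Ptk7* (4.16 and 17.2 CPM, ratio 4.13), which encode receptors known for Wnt signaling without β-catenin. Within *Crabp1* cells the ratios of *Ror1*, *Ror2* and *Ptk7* were 1.27, 1.37 and 0.73. Within *Thbs4* or *Bmp5* cells they were 1.34, 1.75 and 1.15, so none was 2-fold in these subsets. In the remaining subsets they ran from 1.775 to 4.419. The co-receptor *Lrp6* was 142.2 and 173.5 CPM. Of 11 β-catenin feedback and target genes, 6 reached 10 CPM, and *Axin2* (6.91 and 25.5 CPM) and *Nkd2* (3.82 and 21.6 CPM), which encode negative regulators, were at least 2-fold higher, beside the same 4.4%. *Znrf3* was 21.5 and 36.4 CPM and *Apcdd1* 28.1 and 26.8 CPM. *Axin2* was higher in the adult in all 5 subsets, from 24.8 and 43.3 CPM in *Crabp1* cells (1.75-fold) to 6.50 and 27.3 CPM in *Gdf10* or *Fmo2* cells. None of the 6 planar polarity and Dishevelled genes of at least 10 CPM was 2-fold apart, with *Prickle2* at 91.9 and 150.8 CPM, *Prickle1* at 53.5 and 99.4 CPM and *Vangl1* at 28.6 and 44.0 CPM.

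Receptor levels also differed between the subsets. *Ror1* was highest in *Crabp1* cells, at 622.5 CPM at puberty and 791.6 CPM in the adult, and lowest in *Pi16*+*Dpp4*+ cells, at 71.2 and 170.1 CPM. Adult *Sfrp1* was likewise highest in *Crabp1* and lowest in *Pi16*+*Dpp4*+ cells. *Ptk7* was 69.1 and 50.7 CPM in *Crabp1* cells and 1.52 and 5.58 CPM in *Pi16*+*Dpp4*+ cells, and *Wls* was 643.8 and 429.8 CPM in *Crabp1* cells.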

How the data were processed

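Sorted stromal cells of 1 pubertal and 1 adult library were profiled with the 10x GEM-X 3′ v4 kit. The authors deposited 1 filtered matrix of UMI counts for each library, without normalization; the file headers name Cell Ranger 8.0.1, and the submitters' processing notes name the mm10 genome. The study's methods describe later steps (removal of cells by gene number and mitochondrial share, doublet removal with scDblFinder and log normalization in Seurat) that these counts precede: 21534 of 21688 pubertal and 22972 of 23183 adult barcodes passed the first of those filters as applied below. The annotation was not given in the sources used here. The libraries held 21688 and 23183 barcodes with 255274670 and 259549498 UMIs (medians 11726 and 10781 per barcode).

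From these counts, cells with at least 500 genes, at most 10% mitochondrial UMIs and 1 *Pdgfra* UMI were kept (no upper limit on genes). Levels were UMIs summed over cells as CPM, with exact Poisson intervals; ratios had exact conditional binomial intervals and shares Clopper-Pearson intervals, all at 95%. Members were counted as apart at 2-fold among genes of at least 10 CPM in 1 library. With 1 library per stage, no test was made. Doublets were not removed: Scrublet's own threshold could not be used in both libraries, so the highest-scoring cells were taken out as an alternative. Their share was set at 0.4% per 1000 barcodes, or 8.68% and 9.27% of the cells that passed the gene and mitochondrial limits. Cells with 3 mural markers gave the background.

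The members and gene lists were chosen with earlier results of these data known. All members were given values; of the wider lists, genes 2-fold apart or among the 3 highest were named, and for each abundant member the 3 genes most alike over 12 groups. Alternatives covered TMM scaling, equal weighting, exclusive or stricter subsets, depth, doublets and cell filters. Python 3.11.15 (numpy 2.4.6, scipy 1.17.1, scanpy 1.11.5, matplotlib 3.10.9), R 4.3.3 and edgeR 4.0.16 (TMM factors only) were used, and the scripts were tested on simulated data.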

Additional observations from a re-analysis of the deposited data

Results flagged for a closer look

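*Wnt2* moved in opposite directions between subsets: the adult over puberty ratio was 1.681 in *Crabp1* cells and 0.7165 in *Pi16*+*Dpp4*+ cells. *Dkk2* did so between *Crabp1* cells (1.332) and *Fabp4* cells (0.4567). Each of the 4 ratios lay past 1.25-fold. With 1 library per stage the difference between subsets was not tested, and the subsets share cells.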

How the results depend on the processing

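Over 10 alternatives, *Sfrp1* (1.57 to 2.94), *Sfrp4* (0.50 to 0.86) and *Frzb* (1.42 to 4.69) kept the direction of their adult over puberty ratio. With equal weight for each exclusive subset and the cells in none, the ratio turned for *Wnt2* (1.47), *Wnt5a* (0.8451), *Wnt11* (1.051), *Sfrp2* (1.074), *Dkk2* (0.8927), *Dkk3* (0.8686) and *Wif1* (0.419), *Sfrp4* moved to 0.8578, and 0 members in place of 1 were 2-fold apart. TMM scaling turned *Wnt5a* (0.9543) and *Dkk2* (0.9134), and counting cells with at least 2 UMIs turned the ratio of shares for *Dkk2* (1.077). The reported *Dkk2* ratio of 1.008 kept its side of 1 in 5 of the 10 alternatives. Within subsets, members 2-fold apart between stages numbered 0 with exclusive cells and 0 with thinned cells for *Pi16*+*Dpp4*+ (1 as reported). They numbered 0 with 1 more UMI of the defining genes for *Gdf10* or *Fmo2* (1). For *Thbs4* or *Bmp5* they numbered 4 with exclusive and 1 with thinned cells (0). For *Fabp4* they numbered 5 with exclusive cells, 1 with thinned cells and 3 with doublets removed (2), and for *Crabp1* 3 with thinned cells (0). Against the other cells, *Pi16*+*Dpp4*+ gave 2 with exclusive or thinned cells (3). It gave 4 with 1 more UMI, doublets removed or the mean of each cell's CPM. *Gdf10* or *Fmo2* gave 1 with exclusive cells, 1 more UMI, doublets removed, thinned cells or the mean of each cell's CPM (0). *Thbs4* or *Bmp5* gave 5 with exclusive cells, 2 with 1 more UMI and 2 with doublets removed (1), and *Fabp4* gave 4 under each of exclusive cells, 1 more UMI, doublets removed and thinned cells (2). With exclusive cells, the other cells included those that met the same rule and another. The share of all genes past 2-fold was not taken under these alternatives. The counts of members within subsets, between stages or against other cells, thus have no background here. Members found in at least 10% of cells in both libraries were 1 at 2 UMIs and 8 at a depth of 6000 UMIs (5). Apart from the weighting and scaling themselves, the cause was not tested. No paired analysis was possible because each stage has 1 library. Levels under 1 CPM, as for *Wif1* and *Frzb*, rest on few UMIs.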

Other observations

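In the 28 adult cells with epithelial markers and no *Pdgfra* UMI, *Wnt5a* had 32 UMIs (74.0 CPM, 50.6 to 104.5), while *Sfrp1* had 3 UMIs (6.94 CPM, 1.43 to 20.3).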
